A study of Homo sapiens with 4 samples.

Results

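The 32 genes described here are a chosen list of those that make cholesterol and its precursors, and sense, take up, store and export cholesterol. The list does not hold every gene of these steps. The cells were M14, an established human melanoma cell line. Members were the probe sets (groups of short probes read as 1 value) that the array annotation assigns to 1 of these genes alone, which gave 68 probe sets for 29 of the 32 genes, out of 19775 genes on the array. FDFT1 and NR1H2 had no probe set in the annotation used here, and both probe sets of CYP51A1 are shared with LRRD1. Of the 29 genes, 27 had a signal above a common floor on at least 2 of the 4 arrays and were tested; TM7SF2, a sterol reductase gene, and NR1H3, an LXR gene, were below it on all 4.

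The study placed M14 cells carrying FLAG-tagged ARHGAP8, supplied as its coding region without exon 5, beside cells carrying the empty pIRES2-eGFP vector. Each line was grown for 4 days in 3D, embedded in growth factor-reduced Matrigel (a mouse basement membrane extract), or in 2D on plastic coated with type I collagen, in serum-containing medium. The 4 groups were thus the ARHGAP8 line in 3D, the empty-vector line in 3D, the ARHGAP8 line in 2D and the empty-vector line in 2D, with 1 Affymetrix array each. All cells were selected with G418 and sorted for eGFP, and there was 1 stable line per plasmid, so plasmid and line cannot be told apart. Each array averages over a whole culture, so more signal per cell and more cells with signal cannot be told apart either.

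Cholesterol is built from acetyl-CoA through mevalonate, isoprenoid diphosphates, squalene and lanosterol. When sterol in the endoplasmic reticulum membrane is low, SCAP carries the transcription factor SREBP2 to the Golgi, where it is cut and released to switch on the genes of this pathway and of cholesterol uptake. When sterol is plentiful, INSIG proteins hold SCAP back, and oxysterols activate the nuclear receptors LXR, which switch on genes of cholesterol export.

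All values are MAS5 signal intensities on a linear scale, with the arrays scaled to the same trimmed mean. Signals below the median of all probe sets, 72.3, were set to that floor, and log2 differences were taken after it. Probe sets for ARHGAP8 itself are all 4 shared with PRR5-ARHGAP8 and read 4.02 to 14.8, below the floor, so the line called ARHGAP8 is named by its label only. Of 7 melanocyte lineage genes on the array 6 were above the floor on all 4 arrays and PMEL was at it on all 4, with a summed signal of 6519 (ARHGAP8) and 6823 (empty vector) in 3D, against 4164 (ARHGAP8) and 6410 (empty vector) in 2D. PTPRC and the other 2 leukocyte genes on the array were at the floor throughout, with sums from 34.9 to 77.2. Of the 4 keratinocyte genes KRT5 and KRT14 were at the floor on all 4 arrays, KRT1 was above it on the 3D arrays only and KRT10 was above it on all 4, with a summed signal of 1342 (ARHGAP8) and 736 (empty vector) in 3D, against 1173 (ARHGAP8) and 928 (empty vector) in 2D. Fibroblast genes COL3A1, LUM and PDGFRA were at the floor on all 4 arrays, and COL1A1 and DCN were above it on all 4. The summed signal of the 5 fibroblast genes was 452 (ARHGAP8) and 496 (empty vector) in 3D, against 347 (ARHGAP8) and 511 (empty vector) in 2D. The ARHGAP8 3D array stood apart by its median signal for 18S ribosomal RNA, 626 against 27.7 to 49.4 on the other 3 arrays. RNA integrity, read as the signal of the 3' end of ACTB over that of its 5' end, was 1.32 (ARHGAP8) and 1.23 (empty vector) in 3D, against 1.05 (ARHGAP8) and 1.10 (empty vector) in 2D. The same ratio for GAPDH differed less, at 0.925 (ARHGAP8) and 0.901 (empty vector) in 3D, against 0.899 (ARHGAP8) and 0.874 (empty vector) in 2D. The part of these array and RNA measures in the results below was not tested.

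In 3D culture most of the listed genes of sterol synthesis, of SREBP2 control and of cholesterol handling in lysosomes and cytosol rose. Of the genes of LXR and export 0 of 3 tested passed, and SOAT1, of cholesterol esterification, did not pass. Most tested genes on the array did not pass either. Of the 27 tested genes 20 rose in 3D and 0 fell, against 2.83% of all 13239 tested genes rising and 4.15% falling, or 6.99% in either direction. This count was 6 with the mean of each gene's probe sets and 0 with no filter on low values, and 17 to 20 under the 7 other ways of processing. The test was limma's additive model of culture and plasmid over the 4 arrays, with a Benjamini-Hochberg adjusted p threshold of 0.05. The median 3D minus 2D difference was 1.13 log2 units over the 27 genes and 0.03 over all tested genes. Both 3D signals exceeded both 2D signals for 22 of the 27, against 27.5% of all tested genes, and lay below both for 2, SCAP and SOAT1, against 22.7%. Within each line the 3D signal was the higher one for 22 of 27, against 34.1% of all tested genes. The 20 rises ran from 1.52-fold for NPC2 to 6.89-fold for MSMO1, and 10 of the 50 largest rises on the array were among them. The members and the comparison were chosen with earlier results of these data known, so these counts describe the genes and carry no separate test.

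**Figure D1:**
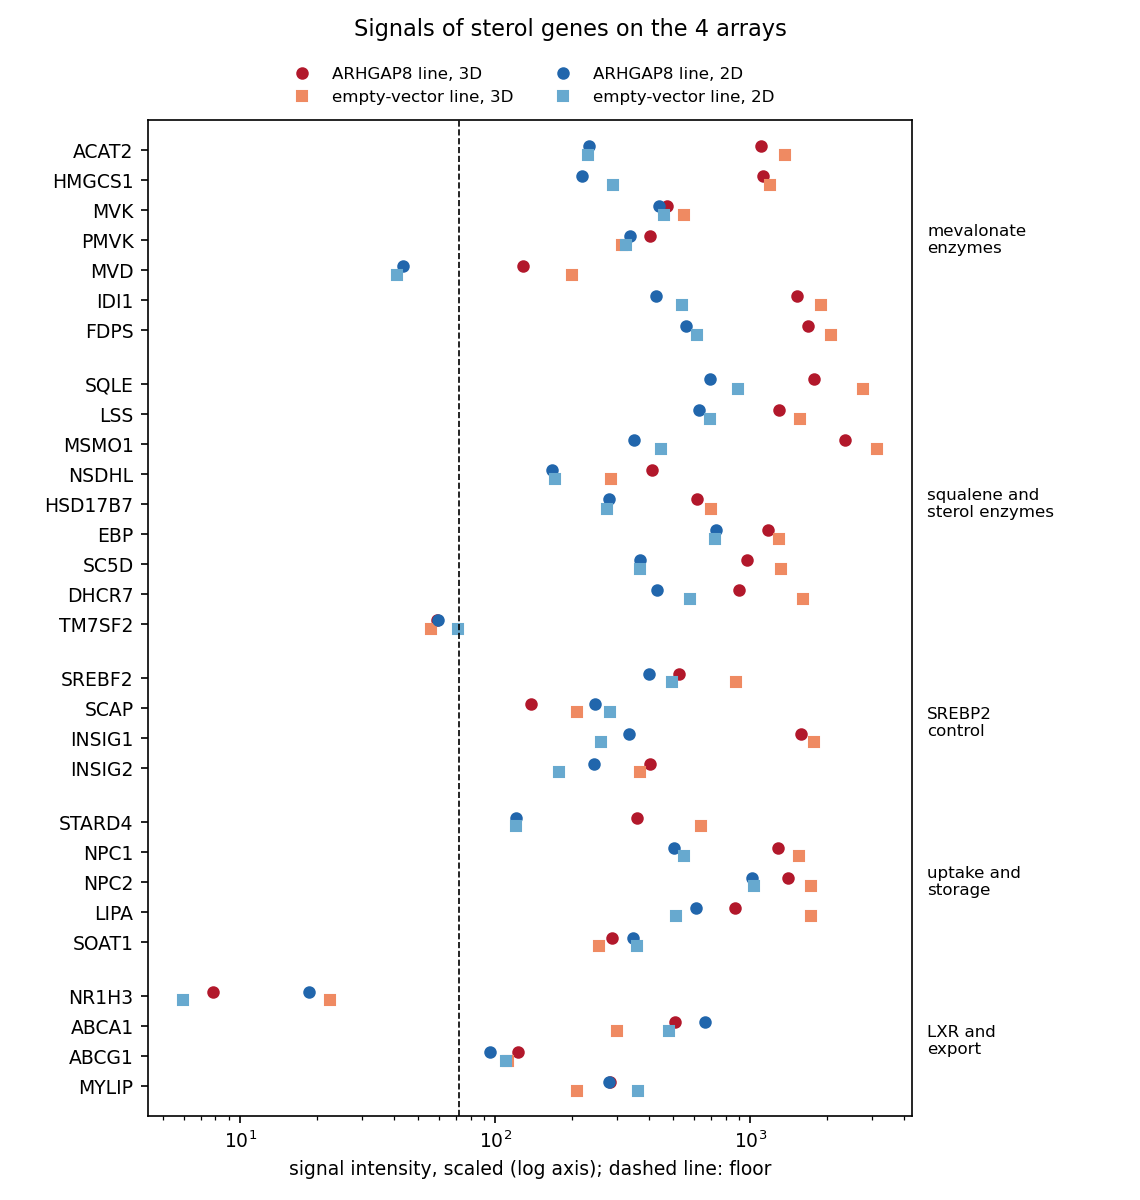
Scaled signal intensity (log axis) of the 29 genes on each of the 4 arrays, 1 point per array, with circles for the ARHGAP8 line, squares for the empty-vector line and a dashed line at the floor of 72.3. For the 22 genes with both 3D signals (red and orange) above both 2D signals (blue), the widest separation is that of MSMO1, at 2359 and 3149 in 3D against 352 and 445 in 2D.

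The first enzymes of the mevalonate pathway rose strongly. ACAT2, the cytosolic thiolase that joins a pair of acetyl-CoA molecules, had signals of 1099.8 (ARHGAP8) and 1363 (empty vector) in 3D, against 233 (ARHGAP8) and 232 (empty vector) in 2D. It rose by 2.40 ± 0.17 log2 units (moderated SE, 4 arrays), or 5.27-fold (limma, adjusted p = 2.94e-08). HMGCS1, which makes HMG-CoA from that product, had 1117 (ARHGAP8) and 1197 (empty vector) in 3D, against 219 (ARHGAP8) and 289.8 (empty vector) in 2D. The 3D arrays lay far above the 2D arrays for both genes, and HMGCS1 rose by 2.20 ± 0.17 log2 units (4.59-fold, limma adjusted p = 8.07e-08). Its other probe set gave 1.97.

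The listed kinases further along the pathway did not pass. MVK, mevalonate kinase, had 472 (ARHGAP8) and 551 (empty vector) in 3D, against 439 (ARHGAP8) and 458 (empty vector) in 2D, a difference of 0.19 ± 0.17 log2 units. PMVK, phosphomevalonate kinase, had 403 (ARHGAP8) and 315 (empty vector) in 3D, against 337 (ARHGAP8) and 327 (empty vector) in 2D, and its 3D and 2D signals overlapped. The differences of both were small beside those of the listed genes before and after them (limma adjusted p = 0.597 for MVK and 0.819 for PMVK). MVK's other probe sets above the floor on at least 2 arrays gave -0.02 and 0.20.

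The later steps of the mevalonate branch rose again. MVD, the decarboxylase that makes isopentenyl diphosphate, had 128 (ARHGAP8) and 201 (empty vector) in 3D, against 43.4 (ARHGAP8) and 41.3 (empty vector) in 2D. Both 2D signals were below the floor, so its rise is a lower bound of 1.77-fold in the ARHGAP8 line and 2.78-fold in the empty-vector line (limma adjusted p = 0.00687). IDI1, the isomerase of isopentenyl diphosphate, had 1529.9 (ARHGAP8) and 1893 (empty vector) in 3D, against 426 (ARHGAP8) and 538 (empty vector) in 2D. The 2 lines gave nearly the same rise for IDI1, 1.85 in the ARHGAP8 line and 1.82 in the empty-vector line on the log2 scale (limma adjusted p = 3.00e-07). Its probe set has the x suffix that the maker gives to probes that may bind other transcripts; of its 3 other probe sets 1 gave 1.48, and 2 dim ones gave -0.18 and -0.21. FDPS, which makes farnesyl diphosphate, had 1679 (ARHGAP8) and 2068 (empty vector) in 3D, against 559.7 (ARHGAP8) and 616 (empty vector) in 2D. It rose 3.17-fold (limma adjusted p = 9.31e-07). In all, 5 of the 7 mevalonate genes rose, against 2.83% of all tested genes, and 2 did not pass, with a group median of 1.67 log2 units.

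Every tested enzyme from squalene onward rose, 8 of 8, against 2.83% of all tested genes. Their median was 1.26 log2 units, against 0.03 for all tested genes. MSMO1, the methyl oxidase that removes methyl groups from lanosterol-derived sterols, had 2359 (ARHGAP8) and 3149 (empty vector) in 3D, against 352 (ARHGAP8) and 445 (empty vector) in 2D. Its rise of 2.78 ± 0.16 log2 units, 6.89-fold, had a limma adjusted p of 9.23e-10. In the ARHGAP8 line it was 6.71-fold and in the empty-vector line 7.07-fold.

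SQLE, the squalene epoxidase and a rate-limiting enzyme of the pathway, had 1782 (ARHGAP8) and 2769 (empty vector) in 3D, against 696 (ARHGAP8) and 898 (empty vector) in 2D. SQLE rose by 1.49 ± 0.16 log2 units, with a limma adjusted p of 5.35e-06, and its other probe sets gave 1.59, 1.46 and, near the floor, 0.57. LSS, which closes the sterol rings to form lanosterol, had 1299.8 (ARHGAP8) and 1573 (empty vector) in 3D, against 632 (ARHGAP8) and 693 (empty vector) in 2D. It rose 2.16-fold with little difference between the lines, and all 3 of its probe sets passed when each probe set was tested by itself.

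The late enzymes that finish the sterol rose as well. SC5D, the sterol desaturase, had 969 (ARHGAP8) and 1315 (empty vector) in 3D, against 369 (ARHGAP8) and 370.3 (empty vector) in 2D. DHCR7, the last reductase on the route through 7-dehydrocholesterol, had 900.3 (ARHGAP8) and 1612 (empty vector) in 3D, against 432 (ARHGAP8) and 582 (empty vector) in 2D. Both separated the cultures in each line, by 1.61 ± 0.17 and 1.26 ± 0.17 log2 units (limma adjusted p = 4.26e-06 and 6.00e-05).

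HSD17B7, which in sterol synthesis acts as a 3-keto reductase, had 618 (ARHGAP8) and 704 (empty vector) in 3D, against 280.1 (ARHGAP8) and 274 (empty vector) in 2D. It rose 2.38-fold, read from 1 probe set of the x kind. NSDHL, a decarboxylating dehydrogenase of the same demethylation complex, had 412 (ARHGAP8) and 285 (empty vector) in 3D, against 167 (ARHGAP8) and 171 (empty vector) in 2D. Its rise of 1.01 ± 0.23 log2 units was larger in the ARHGAP8 line (1.30) than in the empty-vector line (0.73), while its other probe set had the opposite order, 0.74 and 1.28. EBP, the sterol isomerase, made the smallest rise of the group, 0.75 ± 0.16 log2 units, with signals of 1169 (ARHGAP8) and 1296 (empty vector) in 3D, against 736 (ARHGAP8) and 728 (empty vector) in 2D. EBP's other probe sets gave 0.42, 1.15 and, near the floor, -0.08. The one at 0.42 was bright and did not pass when tested by itself (limma adjusted p = 0.203). TM7SF2 had 59.4 (ARHGAP8) and 55.8 (empty vector) in 3D, against 59.5 (ARHGAP8) and 71.3 (empty vector) in 2D, all below the floor, so no difference is given.

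**Figure D2:**
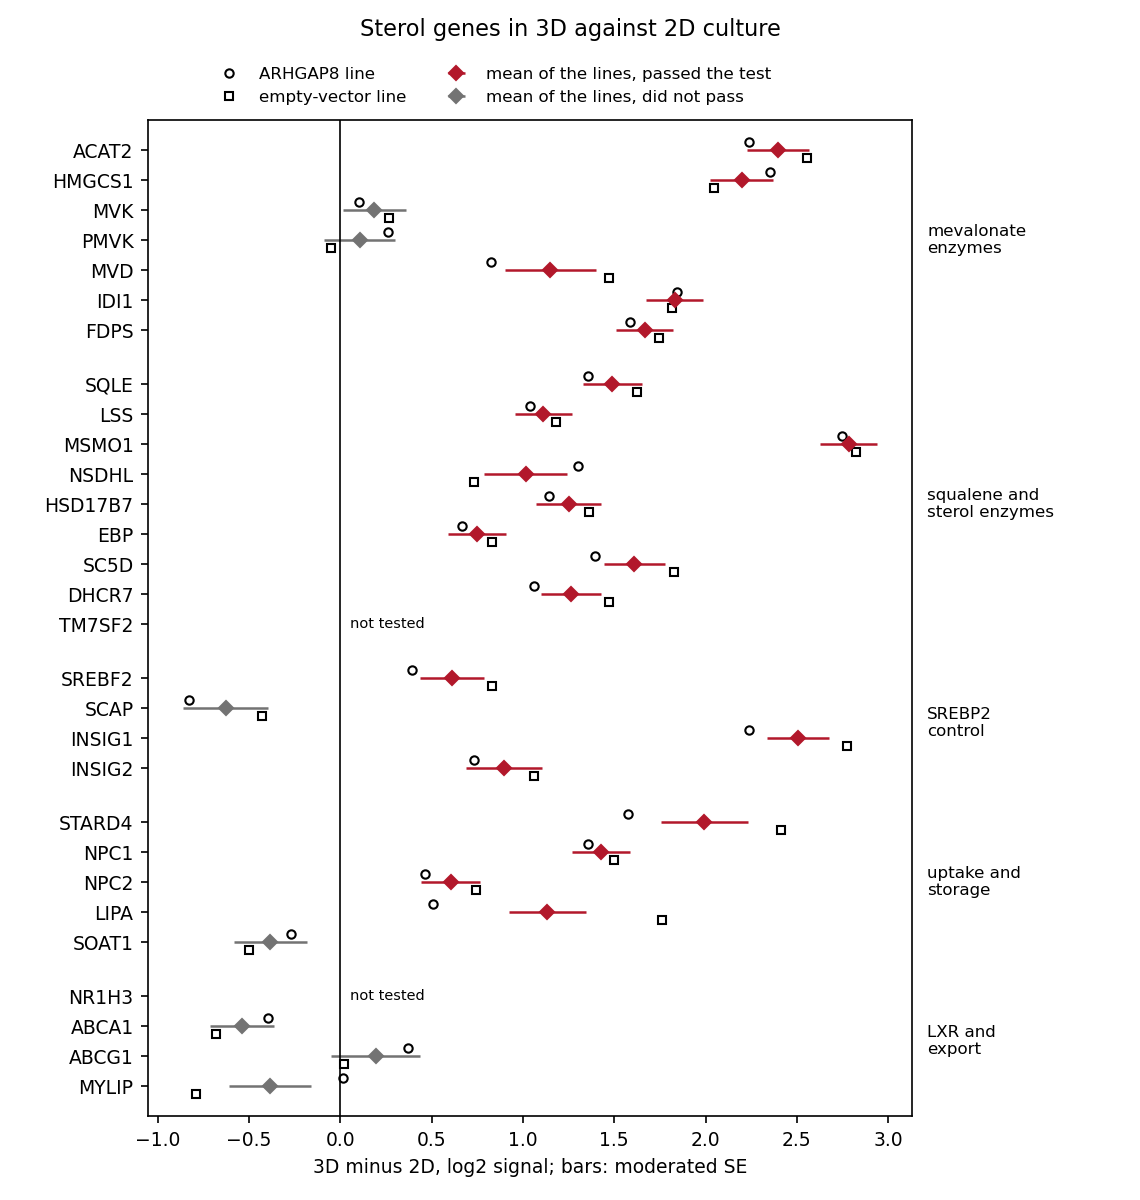
Difference between 3D and 2D culture on the log2 scale for each gene: diamonds are the mean of the 2 lines with its moderated SE, red where the gene passed the test and grey where it did not, and open circles and squares are the ARHGAP8 and empty-vector lines. The 20 red diamonds lie between 0.60 and 2.78, and the 7 grey ones between -0.63 and 0.19.

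Among the genes that control SREBP2, the INSIG genes rose and SCAP did not pass. INSIG1, the retention protein that is itself an SREBP target, had 1585 (ARHGAP8) and 1772 (empty vector) in 3D, against 336 (ARHGAP8) and 259 (empty vector) in 2D. It rose 5.68-fold (limma adjusted p = 1.80e-08), and its other probe sets gave 2.59 and 2.65 log2 units. INSIG2, its relative, had 405 (ARHGAP8) and 369 (empty vector) in 3D, against 244 (ARHGAP8) and 177 (empty vector) in 2D. INSIG2 rose 1.86-fold, less than INSIG1 in both lines (limma adjusted p = 0.0111).

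SREBF2, which encodes SREBP2 itself, had 527 (ARHGAP8) and 879 (empty vector) in 3D, against 402 (ARHGAP8) and 494 (empty vector) in 2D. Its rise of 0.61 ± 0.17 log2 units was close to the threshold (limma adjusted p = 0.0369) and passed under only 2 of 9 other ways of processing, where the adjusted p ran from 0.0234 to 0.577. Its other probe sets gave 0.48 and 0.54. SCAP, the sterol-sensing escort, had 138 (ARHGAP8) and 210.2 (empty vector) in 3D, against 246 (ARHGAP8) and 283 (empty vector) in 2D. Both of its 3D signals lay below both 2D signals, a difference of -0.63 ± 0.23 log2 units that did not pass (limma adjusted p = 0.117).

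Genes that release cholesterol in lysosomes and carry it within the cell rose, 4 of 5 with the esterifying enzyme counted in, against 2.83% of all tested genes. STARD4, a soluble sterol carrier, had 361 (ARHGAP8) and 643 (empty vector) in 3D, against 121 (ARHGAP8) and 121 (empty vector) in 2D. It rose by 1.99 ± 0.24 log2 units (limma adjusted p = 2.00e-05), 2.98-fold in the ARHGAP8 line and 5.32-fold in the empty-vector line. The lysosomal export protein gene NPC1 had 1288 (ARHGAP8) and 1553 (empty vector) in 3D, against 502 (ARHGAP8) and 549 (empty vector) in 2D. NPC1 rose 2.69-fold (limma adjusted p = 7.74e-06) and its partner NPC2 1.52-fold (limma adjusted p = 0.0246). NPC2 had 1402 (ARHGAP8) and 1729 (empty vector) in 3D, against 1017 (ARHGAP8) and 1033 (empty vector) in 2D.

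LIPA, the acid lipase that frees cholesterol from esters in lysosomes, had 875 (ARHGAP8) and 1734 (empty vector) in 3D, against 615 (ARHGAP8) and 512 (empty vector) in 2D. It rose 2.19-fold on average (limma adjusted p = 0.00199), though the lines were far apart, at 1.42-fold in the ARHGAP8 line and 3.39-fold in the empty-vector line. SOAT1, which esterifies cholesterol for storage, had 288 (ARHGAP8) and 255 (empty vector) in 3D, against 348 (ARHGAP8) and 360.3 (empty vector) in 2D. Its 3D signals were the lower ones, a difference of -0.39 on the log2 scale, and it did not pass (limma adjusted p = 0.283). SOAT1's other probe sets gave 0.17 and 0.12.

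No gene of LXR and export passed, 0 of 3 tested by limma, against 6.99% of all tested genes passing in either direction. Of the 3, 1 had an unadjusted limma p under 0.05, against 21% of all tested genes. ABCA1, the transporter that loads cholesterol onto apolipoproteins, had 505 (ARHGAP8) and 300.1 (empty vector) in 3D, against 665 (ARHGAP8) and 480.4 (empty vector) in 2D. The cultures overlapped across lines, although within each line the 3D signal was the lower one (-0.40 in the ARHGAP8 line and -0.68 in the empty-vector line, limma adjusted p = 0.0702). ABCG1, which exports sterol to lipoprotein particles, had 123 (ARHGAP8) and 112 (empty vector) in 3D, against 95.1 (ARHGAP8) and 110.4 (empty vector) in 2D, close to the floor. MYLIP, an LXR-induced ubiquitin ligase that degrades lipoprotein receptors, had 282 (ARHGAP8) and 210.1 (empty vector) in 3D, against 279 (ARHGAP8) and 363 (empty vector) in 2D. The differences of MYLIP were 0.02 in the ARHGAP8 line and -0.79 in the empty-vector line, and it did not pass (limma adjusted p = 0.346). Another MYLIP probe set of like signal gave -0.41 in the ARHGAP8 line and 0.25 in the empty-vector line. A dimmer one gave -0.37 in the ARHGAP8 line and -0.16 in the empty-vector line. NR1H3 read 7.84 (ARHGAP8) and 22.5 (empty vector) in 3D, against 18.7 (ARHGAP8) and 5.96 (empty vector) in 2D, below the floor throughout.

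Each line gives its own reading of the culture difference, from 1 array per culture. The mean 3D minus 2D difference was larger than the gap between the lines for 23 of the 27, against 42.4% of all tested genes. The gap ran from 0.03 for IDI1 to 1.25 for LIPA, with a median of 0.31, near the 0.28 of all tested genes. By size alone, 13 of the 27 were at least 2-fold higher in 3D in both lines, against 0.604% of all tested genes. In the ARHGAP8 line 14 were at least 2-fold higher, against 1.81%. In the empty-vector line, which does not use the ARHGAP8 3D array, 16 were, against 1.73%. By the same size 0 of the 27 were lower in either line, where 1.96% of all tested genes were lower for ARHGAP8 and 1.29% for the empty vector.

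**Figure D3:**
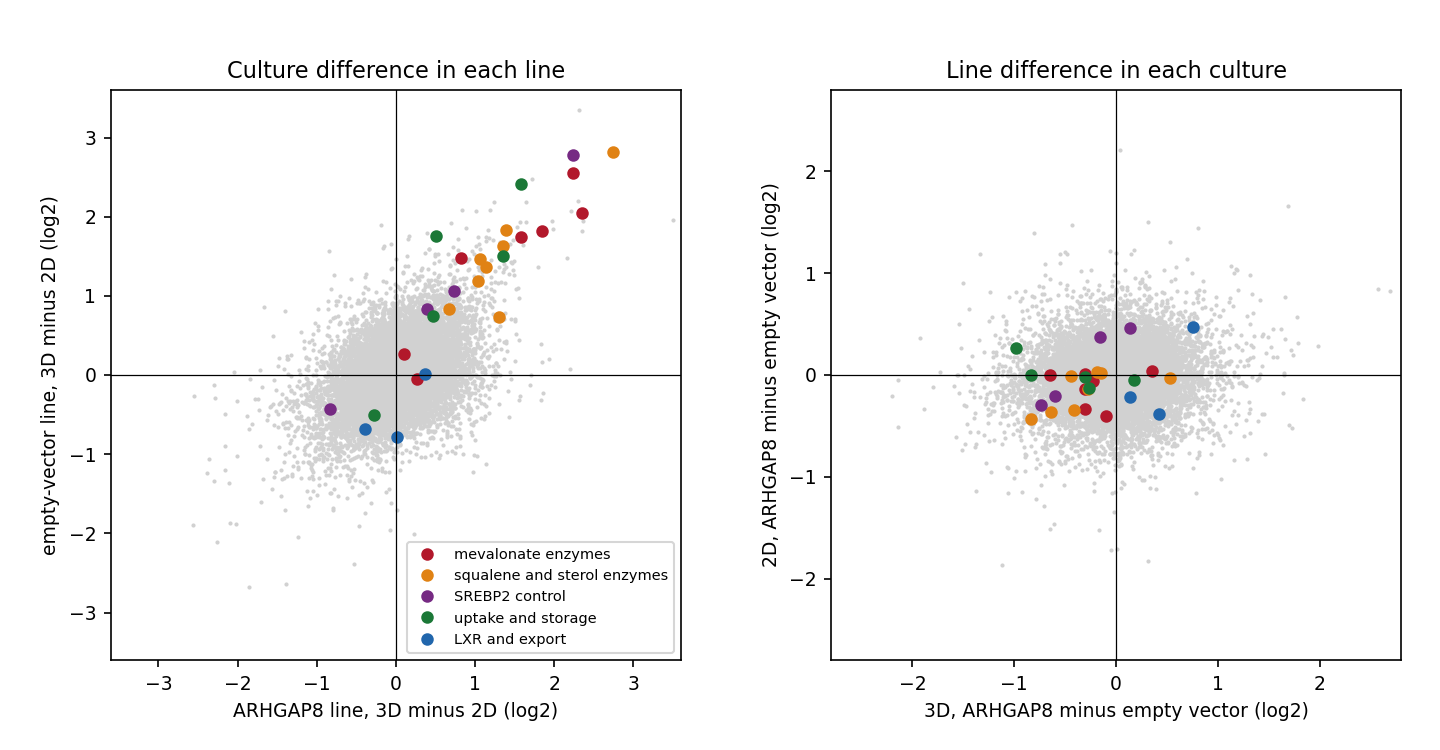
Left, 3D minus 2D differences (log2) in the ARHGAP8 line (horizontal) and the empty-vector line (vertical); right, ARHGAP8 minus empty-vector differences (log2) in 3D (horizontal) and 2D (vertical). Grey points are all 13239 tested genes and coloured points the 27 sterol genes by role; most coloured points lie in the upper right on the left panel, and on the right panel 20 of 27 lie left of 0.

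Other probe sets of the genes that rose mostly moved the same way. Of their 20 other probe sets above the floor on at least 2 arrays, 17 were higher in 3D on average and 3 lower. With every probe set tested by itself in limma, 11 of these 20 passed as higher and 0 as lower. The 3 lower ones, 2 of IDI1 and 1 of EBP, read -0.18, -0.21 and -0.08 and had dim signals.

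**Figure D4:**
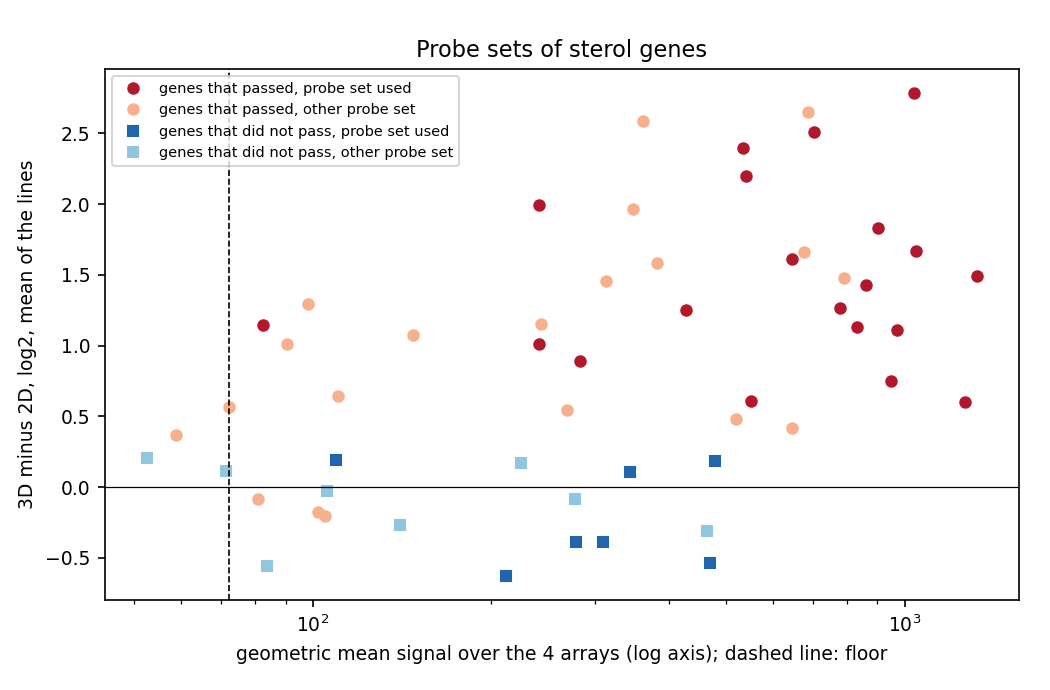
Mean 3D minus 2D difference (log2) of the 55 tested probe sets against their geometric mean signal over the 4 arrays (log axis), red and orange for genes that passed and blue for genes that did not, darker where the probe set represents its gene; the dashed line is the floor. The 3 orange points below 0 lie at the dim end, close to the floor of 72.3.

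Further genes of the pathway were read from a list of 60, chosen by known role, of which 49 were tested. Of these 4 rose in 3D and 2 fell, against 2.83% and 4.15% of all tested genes, so the share that fell was near that of all genes. Their median difference was 0.15 log2 units. RDH11, a retinal reductase, had 1269.7 (ARHGAP8) and 1007 (empty vector) in 3D, against 444 (ARHGAP8) and 474 (empty vector) in 2D and rose 2.46-fold (limma adjusted p = 4.56e-05). ERG28, an endoplasmic reticulum scaffold for sterol demethylation, had 732 (ARHGAP8) and 859.6 (empty vector) in 3D, against 299 (ARHGAP8) and 385 (empty vector) in 2D and rose 2.34-fold (limma adjusted p = 1.17e-04). RDH11 differed by 1.51 in the ARHGAP8 line and 1.09 in the empty-vector line, and ERG28 by 1.29 in the ARHGAP8 line and 1.16 in the empty-vector line.

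TMEM97, a sterol-regulated membrane protein gene, and PLTP, the phospholipid transfer protein gene and an LXR target, rose by less, 0.57 ± 0.16 and 0.79 ± 0.18 log2 units (limma adjusted p = 0.0382 and 0.0085). On other branches that draw on the same isoprenoid diphosphates, 2 of 10 tested genes fell, against 4.15% of all tested genes, and 0 rose, against 2.83%. The 2 that fell were ZMPSTE24, a protease of prenylated proteins, at -0.82, and ICMT, which methylates prenylated proteins, at -0.67 (limma adjusted p = 0.00311 and 0.0246). Of the 9 other tested genes of SREBP processing 0 passed in limma, with 3 at an unadjusted p under 0.05, against 21% of all tested genes. Of the 15 other tested genes of cholesterol transport and storage, which include the lipoprotein receptors tested, 0 passed in limma, with 5 at an unadjusted p under 0.05.

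Because so many of these genes rose, their promoters were read from RefSeq (GRCh38.p14). Each window ran from 250 bases before to 50 after 1 start per gene, and 28 of the 32 genes matched. For MVK, PMVK, DHCR7 and SCAP the start used lay inside the outer bounds of the gene. Searched on both strands, the string TCACNCCAC, used here for the sterol regulatory element, occurred in 1 of 28, SREBF2, against 1.15% of all 27303 promoters of that length. The CCAAT box, bound by NF-Y, a partner of SREBPs, occurred in 18 of 28, and in 14 of the 18 promoters of genes that rose, against 35.7% of all promoters. Of the 6 promoters of tested genes that did not pass, 3 held it. The DR4 element bound by LXR, AGGTCA repeated after a gap of 4 bases, occurred in 0 of 28, against 0.0183% of all. A match is a string of letters and not a site shown to be bound. Elements with other letters or outside this window were not searched, so a promoter without a match may still have them.

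The promoters of 5 genes that rose are shown. They include the only match to TCACNCCAC and the genes with the largest rises that have a promoter entry with a CCAAT box. Capitals mark CCAAT or its reverse complement ATTGG and, in SREBF2, the match TCACCCCAC. MSMO1 lies at chr4:165327419-165327718, plus strand, HMGCS1 at chr5:43313363-43313662, minus strand, INSIG1 at chr7:155297628-155297927, plus strand, STARD4 at chr5:111512486-111512785, minus strand and SREBF2 at chr22:41832855-41833154, plus strand, each window spanning the upstream flank and the first bases of the gene.
MSMO1: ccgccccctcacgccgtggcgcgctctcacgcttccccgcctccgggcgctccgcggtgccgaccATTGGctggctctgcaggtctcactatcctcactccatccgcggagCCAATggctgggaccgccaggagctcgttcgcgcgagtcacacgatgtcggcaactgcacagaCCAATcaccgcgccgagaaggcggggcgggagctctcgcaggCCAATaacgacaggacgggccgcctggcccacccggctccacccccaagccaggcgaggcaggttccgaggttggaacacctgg
HMGCS1: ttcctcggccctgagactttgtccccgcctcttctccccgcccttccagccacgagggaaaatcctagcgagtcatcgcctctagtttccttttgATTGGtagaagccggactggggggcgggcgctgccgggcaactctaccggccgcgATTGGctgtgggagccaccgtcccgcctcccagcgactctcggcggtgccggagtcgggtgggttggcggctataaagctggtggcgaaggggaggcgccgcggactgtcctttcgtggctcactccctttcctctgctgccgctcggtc
INSIG1: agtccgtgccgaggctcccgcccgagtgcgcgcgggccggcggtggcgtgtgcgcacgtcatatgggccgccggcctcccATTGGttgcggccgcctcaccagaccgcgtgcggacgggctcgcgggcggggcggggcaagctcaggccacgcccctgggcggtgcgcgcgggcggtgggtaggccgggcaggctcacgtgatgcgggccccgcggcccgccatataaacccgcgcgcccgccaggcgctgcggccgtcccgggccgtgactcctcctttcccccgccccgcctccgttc
STARD4: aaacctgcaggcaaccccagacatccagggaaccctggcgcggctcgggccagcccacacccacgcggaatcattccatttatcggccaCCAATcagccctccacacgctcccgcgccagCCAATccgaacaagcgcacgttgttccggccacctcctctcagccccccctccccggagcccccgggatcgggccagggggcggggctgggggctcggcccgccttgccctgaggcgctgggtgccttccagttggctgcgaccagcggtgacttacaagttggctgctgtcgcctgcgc
SREBF2: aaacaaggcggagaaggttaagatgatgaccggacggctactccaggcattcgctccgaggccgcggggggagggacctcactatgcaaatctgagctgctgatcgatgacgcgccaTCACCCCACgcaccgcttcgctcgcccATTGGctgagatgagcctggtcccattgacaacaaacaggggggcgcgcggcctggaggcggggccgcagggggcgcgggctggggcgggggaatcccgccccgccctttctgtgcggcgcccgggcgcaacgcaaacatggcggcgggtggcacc

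MSMO1, with the largest rise, held 4 CCAAT boxes, the nearest beginning 34 bases before the start. HMGCS1 and STARD4 held 2 each and INSIG1 held 1, beginning 170 bases before the start. In SREBF2 the TCACCCCAC match began 133 bases before the start and the CCAAT box 106 bases before it. The number of boxes did not mark off the genes that rose: MVK, which did not pass, held 5, and IDI1, which rose 3.56-fold, held 0 in this window.

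Between the lines none of these genes passed the test. With the ARHGAP8 line set against the empty-vector line, 0 of 27 passed in limma, against 0.068% of all tested genes higher and 0.0604% lower, or 0.128% in either direction, and 5 had an unadjusted p under 0.05, against 8.14% of all tested genes. These 5 were DHCR7, SQLE, SREBF2, MSMO1 and ABCA1, singled out after their values were seen. On the probe sets used, the first 4 were lower in the ARHGAP8 line and ABCA1 was higher. DHCR7 had 900.3 (3D) and 432 (2D) in the ARHGAP8 line, against 1612 (3D) and 582 (2D) in the empty-vector line, a mean difference of -0.63 ± 0.17 log2 units (limma adjusted p = 0.162). SQLE stood at -0.50 ± 0.16 (limma adjusted p = 0.282), SREBF2 at -0.52 ± 0.17 (limma adjusted p = 0.323) and MSMO1 at -0.38 ± 0.16 (limma adjusted p = 0.482). Averaged over the cultures, the other probe set of DHCR7 gave -0.40. SREBF2 depended on the probe set, with -0.62 and 0.24 for its others. The others of SQLE gave -0.87, -0.15 and, near the floor, 0.18.

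ABCA1 had 505 (3D) and 665 (2D) in the ARHGAP8 line, against 300.1 (3D) and 480.4 (2D) in the empty-vector line. The ARHGAP8 signal was the higher one in each culture (0.75 in 3D and 0.47 in 2D), a mean of 0.61 ± 0.18 log2 units that did not pass (limma adjusted p = 0.208). Its other bright probe set gave 0.46 in 3D and 0.21 in 2D. INSIG1 depended on the probe set, with line differences of 0.11 for the probe set used (the highest mean of log2 signals) and -1.01 and -0.50 for the others, averaged over the cultures.

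The sign of the line difference was shared by many genes, at small sizes. In 3D the ARHGAP8 signal was the lower one for 20 of the 27 genes, against 48.8% of all tested genes, with a median of -0.28 log2 units. In 2D it was lower for 17 of 27, against 50.1%, with a median of -0.05. In both cultures it was lower for 13 of 27, against 26.2% of all tested genes, and higher for 3, against 25.4%. By size, 0 of 27 were at least 2-fold higher or lower in the ARHGAP8 line in 3D, against 1.11% of all tested genes higher and 1.33% lower. In 2D the count was also 0, against 0.227% higher and 0.234% lower. The 3D values rest on the ARHGAP8 3D array, whose ribosomal RNA signal stood apart.

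The difference of differences has no error with 1 array per group and was not tested. The 3D minus 2D difference was the larger one in the empty-vector line for 19 of the 27 genes, against 49.1% of all tested genes. That held for 17 of the 20 genes that rose, and the rise was larger in the ARHGAP8 line for HMGCS1, IDI1 and NSDHL. Another tested probe set gave the opposite order of the lines for SQLE, SREBF2, EBP, IDI1 and NSDHL. The other tested probe sets of HMGCS1, LSS, DHCR7, INSIG1, NPC1 and SC5D kept the order. The largest gap was that of LIPA, with line differences of -0.99 in 3D and 0.27 in 2D, followed by STARD4 (-0.83 in 3D and 0.00 in 2D) and MYLIP (0.43 in 3D and -0.38 in 2D). MYLIP depended on the probe set: another of like signal had the opposite signs, -0.52 in 3D and 0.13 in 2D. A dimmer MYLIP probe set gave -0.66 in 3D and -0.45 in 2D. At the other end, IDI1 (-0.31 in 3D and -0.34 in 2D) and MSMO1 (-0.42 in 3D and -0.34 in 2D) kept nearly the same difference between the lines in both cultures.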

How the data were processed

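The deposited values were linear signal intensities, computed by the authors with MAS5 according to the submitters' processing notes. The sources used here give no MAS5 version or scaling target. There were 54675 probe sets on 4 arrays, 1 per group, so the number of arrays limits the precision, and p-values cover the spread between these arrays only. Per the labels' protocols RNA was amplified in repeated rounds of in vitro transcription from a poly(T) primer.

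Here the arrays were scaled to a common 2% trimmed mean, floored at the median signal of 72.3, without the 62 control probe sets, and log2 was taken. Gene names came from the platform annotation, and 41037 of the 41091 probe sets with a single symbol were updated through RefSeq. The 1801 with several symbols and 11721 with none were not assigned to genes. Each gene was read from its probe set with the highest mean log2 signal. Genes above the floor on at least 2 arrays (13239) were fitted in limma 3.58.1 under R 4.3.3, additively by culture and plasmid, with eBayes variances following signal intensity, and two-sided p-values were adjusted by Benjamini-Hochberg over all genes. The fit has 1 residual degree of freedom, and its moderated SE, with 19.4 prior degrees of freedom, draws mostly on genes of like signal. The fit was also run on simulated data with independent noise of even size and no interaction of plasmid and culture. That run checks the computation and not the p-values given here. Alternatives covered scaling, floor, filter, probe sets and the variance model.

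All 32 members are named. Of the other pathway genes, those past the test are named, up to 8 per comparison with the largest differences. LBR, which did not pass, is named too. The members, lists and comparisons were chosen with earlier results of these data known.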

Additional observations from a re-analysis of the deposited data

Results flagged for a closer look

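The culture response of LIPA, the lysosomal acid lipase gene, differed between the lines in a way that turned the line difference round. LIPA was lower in the ARHGAP8 line in 3D (-0.99 log2 units) and higher in 2D (0.27), a difference of -1.25. This difference was not tested, since each group has 1 array, and it uses the ARHGAP8 3D array. Its other probe set was below the floor on all 4 arrays.

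A pair of probe sets annotated to both CYP51A1, the lanosterol demethylase gene, and LRRD1 carried signal outside the comparisons above. The first had 1684 (ARHGAP8) and 1219 (empty vector) in 3D, against 363 (ARHGAP8) and 433 (empty vector) in 2D, a mean difference of 1.85 log2 units. The other had 1034 (ARHGAP8) and 1478 (empty vector) in 3D, against 479 (ARHGAP8) and 511 (empty vector) in 2D, a mean of 1.32. Which of the 2 genes the signal comes from was not tested.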

How the results depend on the processing

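Under 9 other ways of processing, no difference of the 27 genes reversed where either value passed. The median 3D minus 2D difference of the tested sterol genes stayed between 0.89 and 1.17 log2 units, against 0.00 to 0.05 for all tested genes. With no filter on low values the number of sterol genes rising was 0 instead of 20, and all tested genes called for culture were 0 too, with 1876 at an unadjusted p under 0.05; that setting holds 5483 genes at the floor on all 4 arrays, and the prior degrees of freedom were 0.866 there. With the mean of a gene's probe sets 6 sterol genes rose (ACAT2, HMGCS1, FDPS, MSMO1, DHCR7 and INSIG1), of 37 genes called in all (25 higher, 12 lower), with 4.34 prior degrees of freedom. These same 6 passed under all 8 settings with a filter. SREBF2 passed under 2 of 9 settings, NPC2 under 5 and EBP under 6, and MVD under 6 of the 8 in which it was tested.

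Of all tested genes, 925 were called for culture (375 higher, 550 lower), against 564 after quantile normalization (271 and 293) and 425 without an intensity trend (213 and 212); cyclic loess gave 319 higher and 343 lower. For the plasmid, 17 genes were called, against 61 when a gene had to exceed the floor on every array, 10 with a lower floor, 1 without an intensity trend, and 0 after quantile or cyclic loess normalization, without a filter, with the mean of probe sets or with every probe set tested (unadjusted p under 0.05 for 1003, 1053, 749, 893 and 2024). Sterol genes called for the plasmid were 0 in limma under every one of these settings. Without the ARHGAP8 3D array, which leaves no error for a test, only the empty-vector line gives a culture difference. In that line 16 sterol genes were at least 2-fold higher in 3D, against 1.73% of all tested genes. The same rule in the ARHGAP8 line gave 14, against 1.81%. Asked of both lines at once, a stricter rule, it gave 13, against 0.604%. No paired analysis was possible because the labels give no replicate numbers and each group has 1 array; the additive fit itself already sets 3D against 2D within each line.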
